A study of Bos taurus with 4 samples.

Results

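STAT5A and STAT5B are 2 signal transducers of the STAT family, and their transcripts were followed in fat from under the skin of cattle of the Qinchuan breed from China. Members were the sequence clusters whose header in the deposited sequence file gave either gene by symbol or full name, which were 3 entries of the 36373 clusters with counts. STAT5A had 1 entry (Bt.4641) and STAT5B had 2 (Bt.20143 and Bt.89313), which were described separately and as their sum. The series compared fat of fetal bovines (ATFB, 200 to 250 days of age by the labels) with that of adult cattle of 18 to 24 months, namely bulls (ATAB), heifers (ATAH) and steers (ATAS, males that were castrated). In each group the tissue of 5 animals was pooled into 1 library, so there were 4 libraries and no replicates against which a difference could be checked. A pooled library averages its animals, and a p-value computed from the reads of a pair of libraries describes that pair and says nothing of the spread between animals. Counted reads numbered 15.27 M for ATFB, 16.15 M for ATAB, 15.59 M for ATAH and 15.56 M for ATAS.

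STAT5 proteins wait in the cytoplasm until a cytokine or hormone receptor with a bound JAK kinase is engaged. The kinase phosphorylates a conserved tyrosine near the carboxyl end of STAT5, and the protein then forms dimers, enters the nucleus and binds DNA. In adipose tissue the growth hormone receptor is a main route to STAT5, and both proteins are known for their part in adipocyte differentiation and in lipid metabolism. STAT5A and STAT5B arose by gene duplication, lie beside each other and have very similar coding sequences. In the RefSeq annotation of assembly ARS-UCD2.0 both were on chromosome 19 with 1 other gene listed between them. Coordinates on that assembly were not used here, because reads were counted on transcript sequences.

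The STAT5A entry was 2584 bases long, with a coding sequence from base 69 to base 2453 that holds 795 codons with the stop. The STAT5B entry Bt.20143 was 2597 bases long, with a coding sequence from base 86 to base 2449 and 788 codons. The STAT5B entry Bt.89313 was a predicted, partial transcript of 3599 bases (LOC789476), whose coding sequence began at its first base, ended at base 2275 and was followed by 1324 more bases. Between STAT5A and Bt.20143, 90.21% of the aligned coding bases and 93.86% of the aligned residues were identical. The stretch around the tyrosine that JAK kinases phosphorylate shows how alike the genes are. It is codon 694 in STAT5A and codon 699 in STAT5B Bt.20143, in capitals below, and 6 of the 51 bases shown differed between the genes. Bt.89313 had the same 51 bases as Bt.20143.
STAT5A (Bt.4641, bases 2124 to 2174): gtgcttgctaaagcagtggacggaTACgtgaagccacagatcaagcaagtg
STAT5B (Bt.20143, bases 2156 to 2206): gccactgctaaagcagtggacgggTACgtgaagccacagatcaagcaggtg

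The last 60 coding bases are shown for their difference between the genes, with the stop codon in capitals, and those of Bt.89313 (bases 2216 to 2275) were the same as those of Bt.20143.
STAT5A (Bt.4641, bases 2394 to 2453): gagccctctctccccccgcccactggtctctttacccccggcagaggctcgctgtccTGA
STAT5B (Bt.20143, bases 2390 to 2449): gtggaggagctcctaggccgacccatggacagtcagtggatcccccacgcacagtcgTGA

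The STAT5B entries overlapped over 2214 bases (370 to 2583 of Bt.20143, 196 to 2409 of Bt.89313), and within them they differed at 19 bases. All 19 differences lay within 226 bases, from 376 to 601 of Bt.20143 (codons 97 to 172), and 15 of them were at the third base of a codon. At each of the 19 positions STAT5A had the base of Bt.89313 and not that of Bt.20143. Bt.89313 thus held a run of 405 bases identical to STAT5A (353 to 757 of STAT5A), while the longest run that Bt.20143 shared with STAT5A was 215 bases. A stretch of 60 bases with 10 of the differences is shown for the 3 entries, with the differing bases in capitals.
STAT5B (Bt.20143, bases 455 to 514): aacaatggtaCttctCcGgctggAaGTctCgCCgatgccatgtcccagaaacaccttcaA
STAT5B (Bt.89313, bases 281 to 340): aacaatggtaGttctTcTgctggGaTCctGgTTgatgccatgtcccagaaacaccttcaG
STAT5A (Bt.4641, bases 438 to 497): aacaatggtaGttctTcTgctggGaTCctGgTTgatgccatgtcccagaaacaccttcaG

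The counts hold reads that matched 1 place, so a read inside a shared stretch could be lost or could go to the wrong entry. Windows of 90 bases, the length of the reads, were searched for in all deposited sequences. Of these windows, 1931 of 2495 in STAT5A (77.39%) were found in no other sequence of the deposited file. The share was 615 of 2508 windows in Bt.20143 (24.52%) and 1058 of 3510 in Bt.89313 (30.14%). In Bt.20143, 369 of the unique windows started before the stretch it shares with Bt.89313 and 246 within it. In Bt.89313, 195 started before that stretch, 89 within it and 774 behind it, in the long tail after the stop codon. The entries of STAT5B were therefore open to unique reads mostly in different parts of the transcript, Bt.20143 near its start and Bt.89313 in its tail. The last 416 bases of Bt.89313 (3184 to 3599) were also identical to bases 20 to 435 of an expressed sequence tag cluster of 891 bases (Bt.64636), whose header names no gene and which is no member. RPKM, the reads per kilobase of sequence per 1 M counted reads, divides by the whole length and so gives the STAT5B entries low values for the part of them that could be counted.

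STAT5A was detected in every library, and the fetal library held the fewest reads of it. It had 493 reads in ATFB and 863, 762 and 783 in ATAB, ATAH and ATAS. The RPKM level of STAT5A was 12.5 in ATFB (95% exact Poisson interval 11.4 to 13.6), 20.7 in ATAB (19.3 to 22.1), 18.9 in ATAH (17.6 to 20.3) and 19.5 in ATAS (18.1 to 20.9). The fetal interval lay below the 3 adult intervals, which overlapped each other. All intervals here describe the error of counting alone, because no group had a replicate library. The reads carried no molecular identifiers and need not stand for separate molecules, so even that error can be larger than the intervals show. Reads covered 87.93% of the STAT5A sequence in ATFB and 91.33%, 89.13% and 89.09% of it in ATAB, ATAH and ATAS, where unique windows of 90 bases can reach 89.78%, so that coverage was above the reach in ATAB and below it in the other libraries. By RPKM, STAT5A stood above 78.5% of the clusters with reads in ATFB and above 87.8% of them in ATAB, with 84.7% in ATAH and 84.4% in ATAS.

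The STAT5B entries were at lower RPKM, and the difference between the fetal and the adult libraries was larger for Bt.20143. Bt.89313 had 161 reads in ATFB and 277, 275 and 304 in ATAB, ATAH and ATAS, at 2.93, 4.77, 4.90 and 5.43 RPKM. Bt.20143 had 29 reads in ATFB and 150, 191 and 177 in ATAB, ATAH and ATAS, at 0.731, 3.58, 4.72 and 4.38 RPKM. Both entries were lowest in ATFB. In ATFB Bt.20143 stood above 28.5% of the clusters with reads and in the adult libraries above 56.2% to 58.5% of them. Bt.89313 stood above 51.9% in ATFB and above 59.2% to 62.1% in the adult libraries. Summed over the entries, STAT5B had 190 reads in ATFB and 427, 466 and 481 in ATAB, ATAH and ATAS. Per 1 M counted reads the STAT5B sum was 12.4 in ATFB (10.7 to 14.3), 26.4 in ATAB (24.0 to 29.1), 29.9 in ATAH (27.2 to 32.7) and 30.9 in ATAS (28.2 to 33.8). As for STAT5A, the fetal interval of the STAT5B sum lay below the adult intervals and these overlapped each other.

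**Figure D1:**
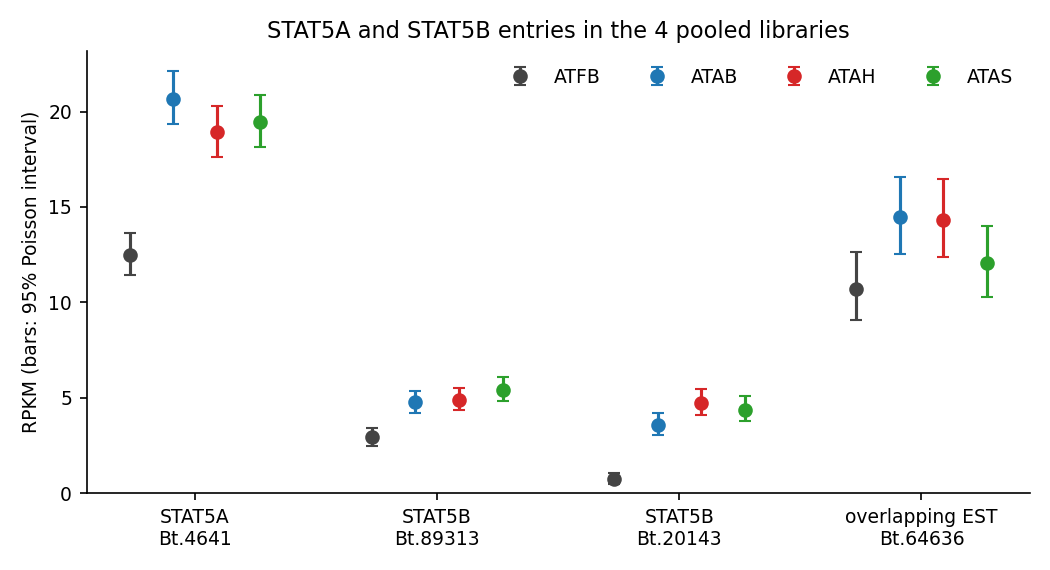
Level in RPKM (linear axis from 0) of STAT5A, the STAT5B entries Bt.89313 and Bt.20143 and the tag cluster Bt.64636 in the 4 libraries, with 95% exact Poisson intervals of the counts as bars. STAT5A ran from 12.5 in ATFB to 20.7 in ATAB, Bt.89313 from 2.93 to 5.43 and Bt.20143 from 0.731 to 4.72, each lowest in ATFB.

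Reads covered 38.4% of the Bt.89313 sequence in ATFB and 49.79%, 56.13% and 55.15% of it in ATAB, ATAH and ATAS. Each of these was above the 34.34% of its length that unique windows of 90 bases can reach. Reads covered 25.84% of Bt.20143 in ATFB and 33.12%, 37.31% and 33.89% in ATAB, ATAH and ATAS, against 30.54% within reach. Where the coverage exceeded the reach, which was in all libraries for Bt.89313, in the adult libraries for Bt.20143 and in ATAB for STAT5A, part of the covered bases lay where a perfectly matching read of this length would fit another sequence as well. The study allowed mismatches, and which reads gave this coverage was not tested.

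**Figure D2:**
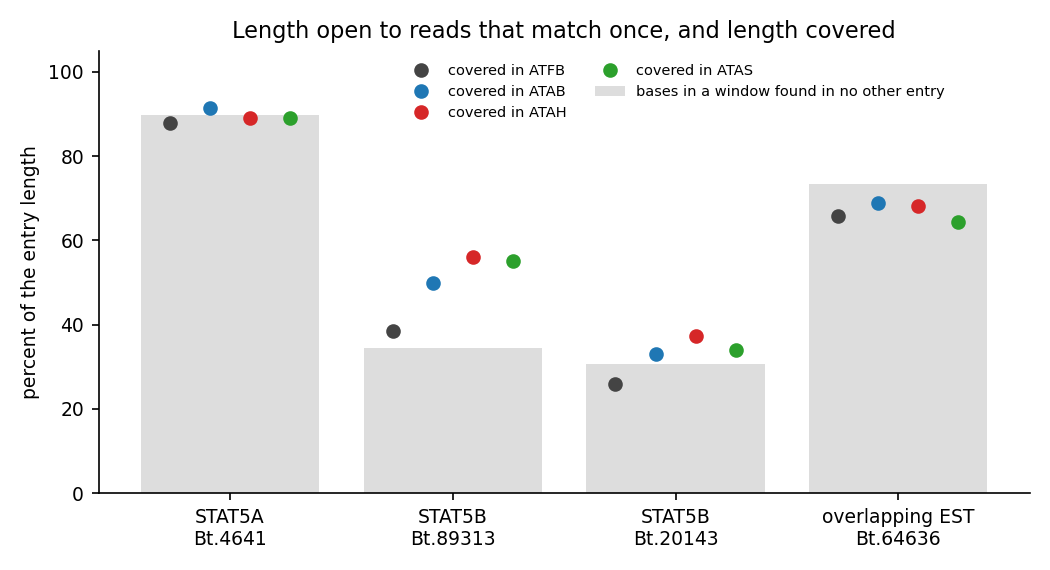
Percent of each sequence covered by reads in the 4 libraries, beside the percent that unique windows of 90 bases can reach. STAT5A lay between 87.93% and 91.33%, with a reach of 89.78%, and Bt.89313 lay above its reach of 34.34% in all 4 libraries, up to 56.13% in ATAH.

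The comparison of each adult library with the fetal library asks how the members differ between fetal and adult fat. A cluster was called where the exact binomial test of its reads had a Benjamini-Hochberg FDR of 0.001 or less and the log2 ratio was at least 1 in size. The level of STAT5A was 1.66-fold higher in ATAB than in ATFB (log2 ratio 0.73, 95% interval 0.57 to 0.89, FDR 9.54e-19). It was 1.51-fold higher in ATAH (log2 ratio 0.60, 0.43 to 0.77, FDR 2.55e-12) and 1.56-fold higher in ATAS (0.64, 0.48 to 0.81, FDR 3.30e-14). These differences exceeded counting error, and none reached the log2 ratio of 1, so STAT5A was called in no comparison with ATFB. In bulk tissue, fewer cells with a transcript and less of it per cell cannot be told apart.

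The STAT5B sum was 2.13-fold higher in ATAB (log2 ratio 1.09, 0.84 to 1.34, FDR 2.95e-18), 2.40-fold in ATAH (1.26, 1.02 to 1.52, FDR 1.61e-25) and 2.49-fold in ATAS (1.31, 1.07 to 1.56, FDR 6.19e-28) than in ATFB, and was called in all 3 comparisons. Of all clusters tested, 22.6% were called between ATAB and ATFB, 23.7% between ATAH and ATFB and 26.0% between ATAS and ATFB, so a call was common. With ACTB as the scale the log2 ratio of the STAT5B sum was 0.85 in ATAB and 0.99 in ATAH, both under the threshold of 1. The entries did not share the sum's ratio. Bt.20143 was 4.89-fold higher in ATAB (log2 ratio 2.29, 1.71 to 2.92, FDR 1.50e-18), 6.45-fold in ATAH (2.69, 2.12 to 3.31, FDR 9.87e-29) and 5.99-fold in ATAS (2.58, 2.01 to 3.20, FDR 1.28e-25), and was called each time. Bt.89313 was 1.63-fold higher in ATAB (0.70, 0.42 to 0.99, FDR 2.87e-06), 1.67-fold in ATAH (0.74, 0.46 to 1.03, FDR 6.47e-07) and 1.85-fold in ATAS (0.89, 0.61 to 1.18, FDR 5.10e-10), and was called in none. The interval of Bt.89313 overlapped that of STAT5A in each of the 3 comparisons, and the interval of Bt.20143 lay above both. The calls of the STAT5B sum against ATFB thus rested on Bt.20143. The binomial test takes counting error alone, and these calls were lost where a spread between samples was assumed. With a biological coefficient of variation of 0.4, the exact test of edgeR gave Bt.20143 an FDR of 0.184, 0.0731 and 0.0789 and the STAT5B sum an FDR of 0.647, 0.540 and 0.469 in ATAB, ATAH and ATAS, with no call of a member.

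The tag cluster that overlaps the tail of Bt.89313 had 146 reads in ATFB and 208, 199 and 167 in ATAB, ATAH and ATAS. Its log2 ratio to ATFB was 0.43 in ATAB (FDR 0.0147), 0.42 in ATAH (FDR 0.0194) and 0.17 in ATAS (FDR 0.465), with no call. Were its reads counted as STAT5B, the log2 ratio of the sum would be 0.84, 0.96 and 0.92 for ATAB, ATAH and ATAS, and the sum would not be called. This setting was chosen after the overlap had been seen. The file names no gene for the tag, and whether its reads come from STAT5B was not tested.

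**Figure D3:**
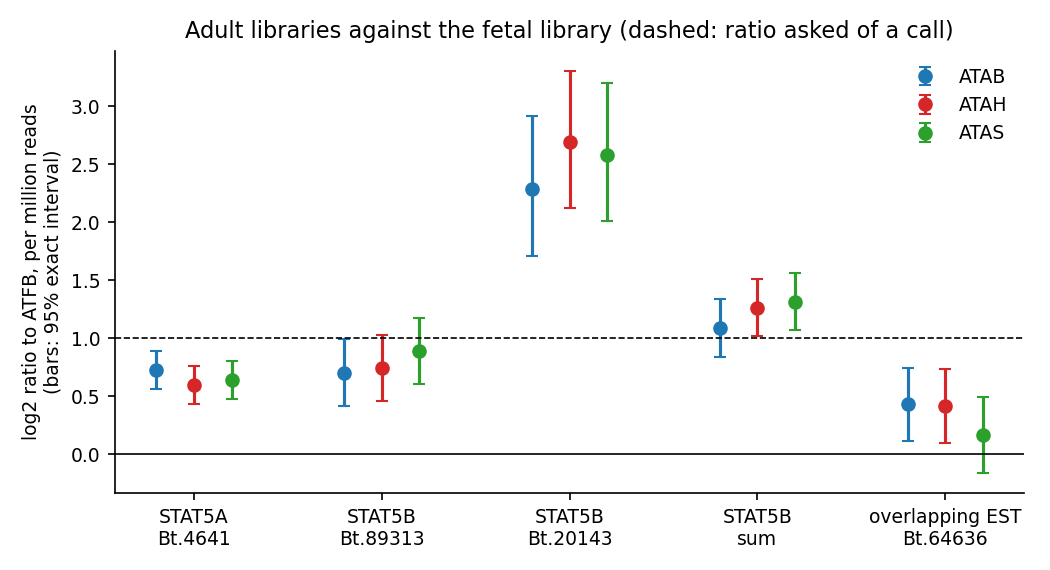
Log2 ratio of each adult library to ATFB for STAT5A, the STAT5B sum, its entries and the tag cluster, with exact 95% intervals as bars and a dashed line at the called size of 1. STAT5A and Bt.89313 lay between 0.60 and 0.89, the STAT5B sum between 1.09 and 1.31 and Bt.20143 between 2.29 and 2.69.

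A second test set ATFB against the 3 adult libraries together (edgeR quasi-likelihood, TMM scaling), so that the spread came from the adult libraries, which are of 3 kinds of cattle, and the fetal library was assumed to vary like them. It called 18.2% of the 25583 clusters tested at a Benjamini-Hochberg FDR of 0.05. STAT5A was higher in the adults by 0.64 on the log2 scale (edgeR FDR 0.165) and was not called. The STAT5B sum was higher by 1.19 (edgeR FDR 0.0290) and was called, and Bt.20143 alone was higher by 2.49 (edgeR FDR 0.0121) and was called. Bt.89313 was higher by 0.75 (edgeR FDR 0.1003) and was not called. Without ATAH the STAT5B sum was higher by 1.22 with an edgeR FDR of 0.0863 and was not called. In that setting the clusters called fell from 4661 to 2327 in all. Leaving out ATAB or ATAS gave an edgeR FDR of 0.0216 and 0.0227 for the STAT5B sum. With the tag cluster in the sum the log2 difference was 0.88 (edgeR FDR 0.0640). At the thresholds of the pairwise test this model called 0 clusters, with 9577 at an unadjusted p under 0.05, and DESeq2 called 1590.

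Among the libraries of bulls, heifers and steers the members differed less. The share of clusters called was 5.37% between ATAH and ATAB, 8.72% between ATAS and ATAB and 3.0% between ATAS and ATAH, and no member was called in any of the 3. From highest to lowest the STAT5A level ran ATAB, ATAS, ATAH and ATFB. The log2 ratio of STAT5A was -0.13 for ATAH to ATAB (-0.27 to 0.01, FDR 0.183), -0.09 for ATAS to ATAB (-0.23 to 0.05, FDR 0.416) and 0.04 for ATAS to ATAH (-0.10 to 0.19, FDR 0.830). With library totals as the scale, the order of the STAT5A levels in the adult libraries was therefore within counting error. With TMM scaling the log2 ratio of STAT5A was -0.41 for ATAH to ATAB (-0.55 to -0.26, FDR 2.11e-07) and -0.38 for ATAS to ATAB (-0.52 to -0.24, FDR 7.45e-07), which exceeded counting error but not the log2 size of 1. The STAT5B sum ran ATAS, ATAH, ATAB and ATFB from highest to lowest, with a log2 ratio of 0.18 for ATAH to ATAB (-0.02 to 0.37, FDR 0.175), 0.23 for ATAS to ATAB (0.03 to 0.42, FDR 0.0548) and 0.05 for ATAS to ATAH (-0.14 to 0.24, FDR 0.867). The median log2 ratio of all clusters was 0.26 for ATAH to ATAB and 0.30 for ATAS to ATAB, above those of the STAT5B sum. With TMM scaling, which brought these medians to -0.02 and 0.01, the STAT5B sum had log2 ratios below 0 to ATAB, of -0.10 in ATAH and -0.07 in ATAS. Bt.20143 had a log2 ratio of 0.40 for ATAH to ATAB (0.08 to 0.72, FDR 0.0413), of 0.29 for ATAS to ATAB (-0.03 to 0.62, FDR 0.168) and of -0.11 for ATAS to ATAH (-0.41 to 0.20, FDR 0.755). Bt.89313 had log2 ratios of 0.04 for ATAH to ATAB (-0.21 to 0.29), 0.19 for ATAS to ATAB (-0.05 to 0.43) and 0.15 for ATAS to ATAH (-0.09 to 0.39), with an FDR of 0.254 to 0.951.

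Ratios of reads within a library need no scaling between libraries. Per STAT5A read there were 0.385 STAT5B reads in ATFB (95% interval 0.324 to 0.457), 0.495 in ATAB (0.440 to 0.556), 0.612 in ATAH (0.544 to 0.687) and 0.614 in ATAS (0.547 to 0.689). The ratio was thus lowest in ATFB, intermediate in ATAB and highest in ATAH and ATAS. By Fisher's exact test, two-sided and adjusted over the 6 pairs of libraries, the ratio differed from ATFB in ATAB (adjusted p = 0.0198), in ATAH and in ATAS (adjusted p = 2.25e-05 for each). By the same exact test it differed from ATAB in ATAH (adjusted p = 0.0186) and in ATAS (adjusted p = 0.0184), and a difference between ATAS and ATAH was not detected (adjusted p = 0.967). With the tag cluster among the STAT5B reads the ratios were 0.682, 0.736, 0.873 and 0.828 in ATFB, ATAB, ATAH and ATAS, and 1 of the 6 pairs kept an adjusted p under 0.05 in the exact test (ATAH and ATFB, 0.0337).

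The entries of STAT5B did not keep a common ratio. For each read on Bt.89313 there were 0.180 on Bt.20143 in ATFB and 0.542, 0.695 and 0.582 in ATAB, ATAH and ATAS. Fisher's exact test of this ratio gave an adjusted p of 5.62e-07 for ATAB, 3.45e-10 for ATAH and 5.63e-08 for ATAS against ATFB. Between adult libraries the exact test gave adjusted p-values of 0.110, 0.246 and 0.628. Per STAT5A read, Bt.89313 had 0.327 reads in ATFB and 0.321, 0.361 and 0.388 in ATAB, ATAH and ATAS, and the exact test detected no difference between any pair of libraries (adjusted p from 0.321 to 0.909). Bt.20143 had 0.0588, 0.174, 0.251 and 0.226 reads per STAT5A read in the same order. It differed between ATFB and each adult library, with adjusted p of 4.34e-08, 1.26e-14 and 1.77e-12 in the exact test, and between ATAB and ATAH (0.00353) and ATAB and ATAS (0.0407). The rise of STAT5B reads against STAT5A reads from the fetal to the adult libraries was therefore found on the entry with its unique windows near the start of the transcript, and was not detected on the entry with most of them in the tail.

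**Figure D4:**
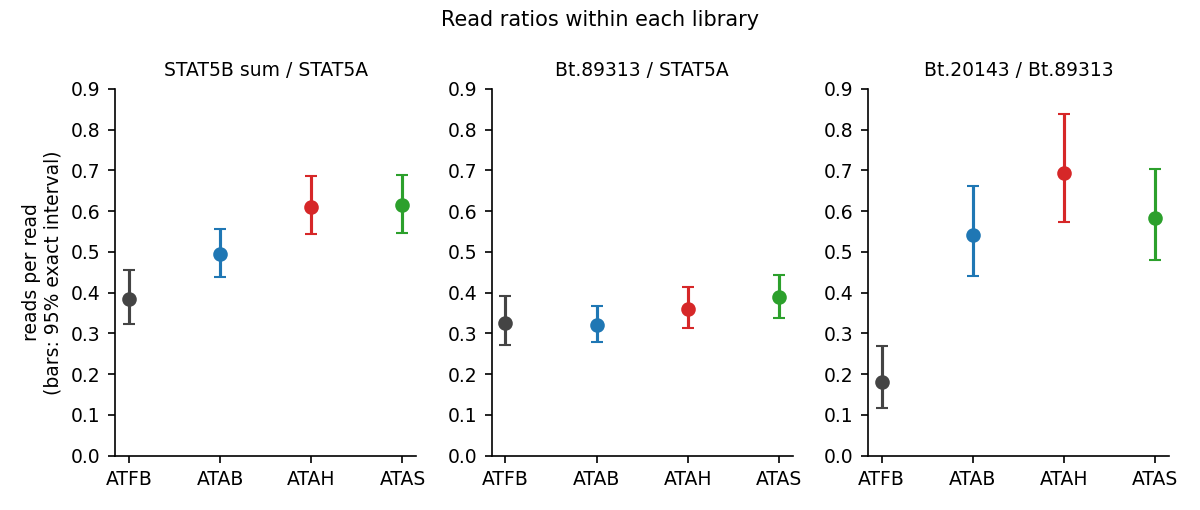
Ratios of reads within each library with 95% intervals as bars, for STAT5B per STAT5A and for the entries. Bt.20143 per Bt.89313 read ran from 0.180 in ATFB to 0.695 in ATAH, while Bt.89313 per STAT5A read stayed between 0.321 and 0.388.

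Compared per kilobase, the STAT5B entries and their sum were below STAT5A in every library. Over the whole length of the entries the STAT5B level was 0.161 of the STAT5A level in ATFB and 0.206, 0.255 and 0.256 of it in ATAB, ATAH and ATAS. Per kilobase of unique window starts it was 0.445, 0.571, 0.706 and 0.709 of the STAT5A level in the same order. On that scale Bt.89313 had 9.96 reads per unique kilobase and 1 M reads in ATFB and 16.2, 16.7 and 18.5 in ATAB, ATAH and ATAS. Bt.20143 had 3.09, 15.1, 19.9 and 18.5 in the same order. In ATAS the entries had the same level per unique kilobase to 3 digits, and in ATFB the level of Bt.20143 was the lower. All reads of an entry were divided by its unique window starts, also reads outside the unique windows. Coverage exceeded the reach in all libraries for Bt.89313 (up to 56.13% against 34.34%), in the adult libraries for Bt.20143 and only in ATAB for STAT5A. The STAT5B values per unique kilobase and their ratios to STAT5A can therefore be too high, by an amount that was not tested. The tag cluster that shares the tail of Bt.89313 was at 1.20, 0.98, 1.06 and 0.87 of the STAT5A level per unique kilobase in ATFB, ATAB, ATAH and ATAS, above STAT5A in ATFB and ATAH.

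The other genes of the JAK-STAT pathway were taken from lists of ligands, receptors, kinases and adaptors, other STATs, inhibitors and known STAT5 target genes. Of the 106 genes on them, 73 had a named cluster, and the rest, among them JAK2, STAT2 and PPARG, were not analysed here. Against ATFB, 26 of 71 tested list genes were called in ATAB (36.6%, 17 higher and 9 lower), 24 of 71 in ATAH (33.8%, 22 higher and 2 lower) and 32 of 71 in ATAS (45.1%, 32 higher and 0 lower). Among all clusters with a symbol, 27.0%, 32.8% and 35.6% were called in the same comparisons. The list genes had a median log2 ratio of 0.31, 0.50 and 0.88 in ATAB, ATAH and ATAS. That of the clusters with a symbol was 0.12, 0.40 and 0.52, and that of all clusters -0.12, 0.03 and 0.04. Over clusters with at least 10 reads in the 2 libraries, the median of all clusters was -0.17, 0.11 and 0.13. In ATAH the share of list genes called was close to that of the named clusters. The number of lower calls depended on the scale. With TMM scaling 4 list genes were called lower in ATAB, 3 in ATAH and 0 in ATAS, beside 20, 21 and 29 higher. With ACTB scaling 9, 4 and 3 were called lower, beside 13, 19 and 29 higher. Of all clusters, 21.5%, 23.7% and 26.1% were called in either direction with TMM scaling and 24.6%, 24.4% and 26.3% with ACTB scaling. Between adult libraries, 9 of 71 list genes were called for ATAH against ATAB (12.7%, 9 higher), 24 of 71 for ATAS against ATAB (33.8%, 23 higher and 1 lower) and 6 of 71 for ATAS against ATAH (8.5%, 5 higher and 1 lower). Among all clusters with a symbol the shares were 7.31%, 14.5% and 4.26%. With TMM scaling 15 list genes were called for ATAS against ATAB, and the share of all clusters called went from 8.72% to 6.79%. With the assumed coefficient of variation of 0.4, 1, 2 and 4 list genes were called against ATFB in ATAB, ATAH and ATAS. Of all clusters, 0.54%, 0.66% and 0.81% were called in that setting.

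Upstream of STAT5, the growth hormone receptor gene GHR had a level of 12.2 RPKM in ATFB and 127, 152 and 176 in ATAB, ATAH and ATAS, and its log2 ratios to ATFB of 3.37, 3.63 and 3.85 were called. The prolactin receptor gene PRLR, named here after its values were seen, had 3 reads in ATAH and 0 in the other libraries. Of the receptors, 5 were called higher and 4 lower in ATAB, 7 higher and 1 lower in ATAH, and 11 higher in ATAS, of 21 or 22 tested (42.9%, 36.4% and 52.4%, beside 27.0%, 32.8% and 35.6% of clusters with a symbol). IL6R, a receptor for interleukin 6, had 2.87, 5.48, 12.1 and 27.4 RPKM in ATFB, ATAB, ATAH and ATAS and was called in ATAH and ATAS. OSMR, the oncostatin M receptor, had 66.5, 24.3, 32.9 and 44.9 RPKM and was called lower in ATAB and ATAH. IFNGR1, IL11RA and CNTFR, receptors for interferon gamma, interleukin 11 and ciliary neurotrophic factor, were called lower in ATAB, at log2 ratios of -1.06, -1.24 and -1.13. With TMM scaling IFNGR1 and CNTFR were at -0.88 and -0.95 and were not called.

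Among the ligands, LEP, which encodes the adipocyte hormone leptin, had 3.24 RPKM in ATFB and 128, 118 and 74.8 in ATAB, ATAH and ATAS and was called in all 3 comparisons. THPO, the gene of thrombopoietin, fell in ATAB and ATAH, at log2 ratios of -1.43 and -1.16. LIF, a cytokine of the interleukin 6 family, was called in ATAS at a log2 ratio of 2.03. OSM, which encodes oncostatin M and is also on the list of known target genes, had 0 reads in ATFB. It had 6, 9 and 31 reads in ATAB, ATAH and ATAS and was called in ATAS.

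Of the 9 kinases and adaptors tested, 2 were called for ATAB (22.2%), 2 for ATAH (22.2%) and 4 for ATAS (44.4%), each of them higher than in ATFB. The shares in ATAB and ATAH were below the 27.0% and 32.8% of clusters with a symbol, and that in ATAS was above the 35.6% of them. The adaptor gene SH2B3, a negative regulator of cytokine signals, had 1.81, 5.65, 8.88 and 9.54 RPKM in ATFB, ATAB, ATAH and ATAS and was called in all 3 comparisons. The Src family kinase gene LYN had 8.46, 17.8, 19.4 and 24.5 RPKM in that order and was also called in all 3. With ACTB scaling the log2 ratio of LYN was 0.84 in ATAB and 0.92 in ATAH, and neither was called. JAK1, a kinase of many cytokine receptors, had 60.2, 61.7, 95.7 and 131 RPKM and was called in ATAS (log2 ratio 1.12), where TYK2 of the same family was called as well (1.36). With TMM scaling JAK1 had a log2 ratio of 0.998 in ATAS and was not called.

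Of the other members of the STAT family, STAT3 had 44.9, 48.6, 55.1 and 66.0 RPKM, STAT6 had 33.4, 28.7, 38.9 and 56.6, and STAT4 had 1.04, 0.576, 1.27 and 1.45, with no call against ATFB. Per kilobase of whole sequence, STAT3 and STAT6 were above STAT5A in each library, and STAT4 was below it.

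**Figure D5:**
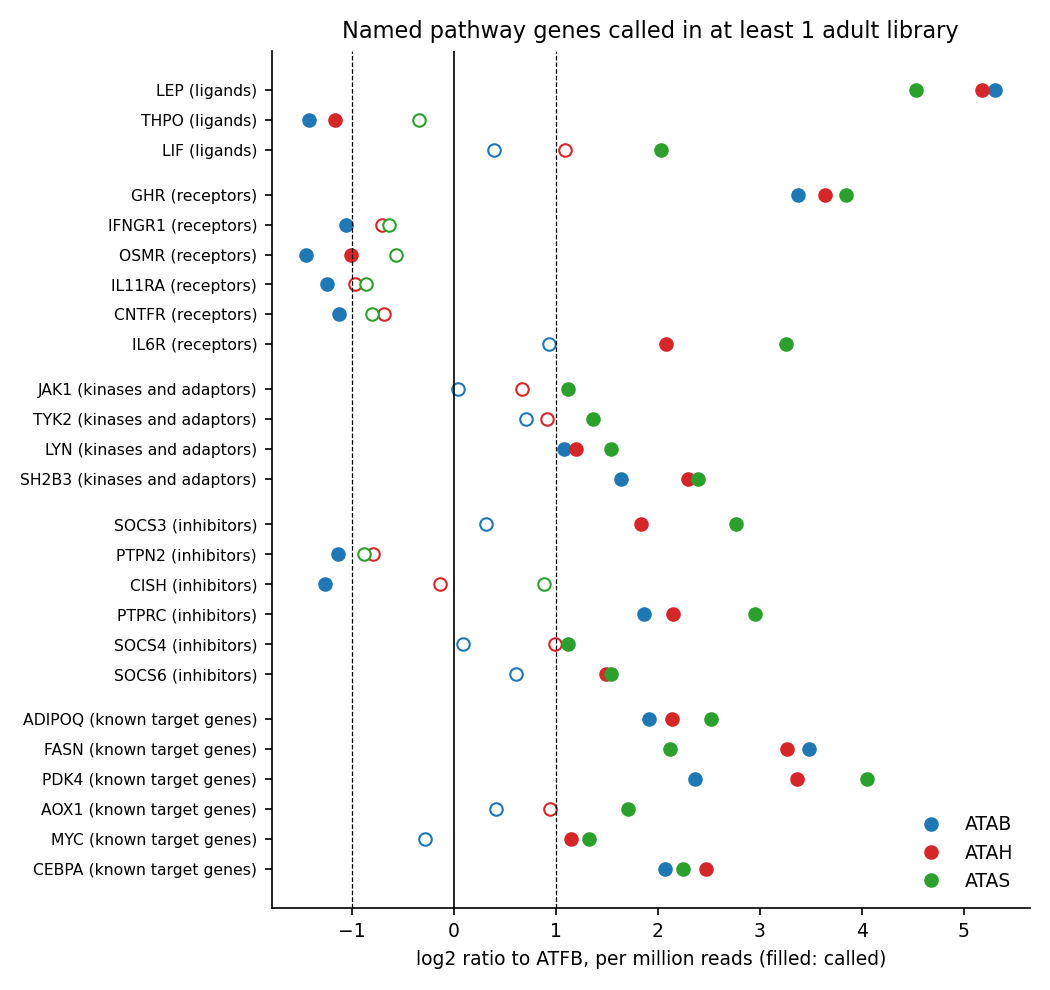
Log2 ratio of each adult library to ATFB for named ligands, receptors, kinases and adaptors, inhibitors and target genes called in at least 1 adult library, with filled points for called values and dashed lines at the called size of 1. OSM, with 0 reads in ATFB, is not drawn. GHR lay at 3.37 to 3.85 and LEP at 4.53 to 5.31, while CISH ran from -1.27 in ATAB to 0.88 in ATAS.

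Of 14 inhibitors tested, 2 were called higher and 2 lower in ATAB (28.6%), 4 higher in ATAH (28.6%) and 5 higher in ATAS (35.7%), close to the 27.0%, 32.8% and 35.6% of clusters with a symbol. CISH, SOCS2 and SOCS3 are also on the list of known target genes, so their calls count in both lists. CISH, a feedback inhibitor that STAT5 itself induces, had 10.5 RPKM in ATFB and 4.35, 9.53 and 19.3 in ATAB, ATAH and ATAS. It was called lower in ATAB (log2 ratio -1.27), and its ratios of -0.14 in ATAH and 0.88 in ATAS were not called. SOCS3, another feedback inhibitor, had 7.76, 9.64, 27.6 and 52.9 RPKM and was called in ATAH and ATAS, and SOCS6 was called in the same libraries at log2 ratios of 1.49 and 1.54. SOCS4 was called in ATAS (1.11), which TMM scaling put at 0.99. The phosphatase gene PTPN2 was called lower in ATAB (-1.14, and -0.96 and not called with TMM scaling). PTPRC, a phosphatase of white blood cells, had 2.17, 7.91, 9.59 and 16.8 RPKM and was called in all 3 comparisons.

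Of 19 known target genes tested, 7 were called higher and 3 lower in ATAB, 9 higher in ATAH and 10 higher in ATAS (52.6%, 47.4% and 52.6%, beside 27.0%, 32.8% and 35.6% of clusters with a symbol). The medians of their log2 ratios were 0.50, 1.10 and 1.32. ADIPOQ, which encodes adiponectin, had 261 RPKM in ATFB and 982, 1150 and 1498 in ATAB, ATAH and ATAS. PDK4, a kinase that restrains glucose oxidation, had 46.2, 238, 477 and 765 RPKM. FASN, the fatty acid synthase gene, had 138, 1548, 1324 and 600 RPKM, and CEBPA, a transcription factor of adipocyte differentiation, 13.0, 54.7, 72.1 and 61.6. These 4 genes were called in all 3 comparisons, and they are also genes of the mature adipocyte. AOX1, an aldehyde oxidase gene, was called in ATAS (log2 ratio 1.71), and MYC in ATAH (1.14, and 0.87 and not called with ACTB scaling) and ATAS (1.32). CAV1 and CCND1 were not called. With library totals as the scale, CISH, BCL2L1 and PIM1 were called lower in ATAB (-1.27, -1.07 and -1.01). SOCS2 was not called in ATAB, ATAH or ATAS (-0.35, -0.15 and -0.19). The list gives no direction in which STAT5 acts on a gene, so counts of higher and lower calls do not measure STAT5 activity.

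Levels of cell type markers differed between the libraries along with the members. The adipocyte marker genes (8 of 12 named) summed to 989 RPKM in ATFB and 6919, 6861 and 6082 in ATAB, ATAH and ATAS, with none of the 8 at 0 reads in any library. Fibroblast and preadipocyte markers (10 of 10) summed to 14879, 10248, 3142 and 4195 RPKM in the same order, with DLK1 at 0 reads in ATAB. The erythroid markers with a cluster, HBG2 and ALAS2, summed to 2390 RPKM in ATFB and 0.761, 1.54 and 0 in the adult libraries. Macrophage and monocyte markers (6 of 8) summed to 130, 237, 220 and 343 RPKM, and lymphocyte markers (9 of 10) to 4.17, 7.43, 12.2 and 19.9. Of the lymphocyte markers, CD4 was at 0 reads in ATFB, ATAH and ATAS and CD79A at 0 reads in ATAB, and MS4A1 was highest in ATFB. Endothelial markers (7 of 8) summed to 560, 398, 572 and 739 RPKM and skeletal muscle markers (6 of 8) to 4.32, 1.78, 5.41 and 2.56. The adipocyte, macrophage and lymphocyte sums were lowest in ATFB, as were STAT5A and both STAT5B entries. The part of cell content in the differences of STAT5A and STAT5B was not tested.

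Among 3653 named clusters with at least 100 reads, the 5 whose pattern over the 4 libraries was most like that of STAT5A were MAP3K6, YIPF1, VEZT, CFAP126 and ANXA5. Likeness was the Euclidean distance between centred log2(RPKM + 0.1) values, which ran from 0.0663 for MAP3K6 to 0.0917 for ANXA5. MAP3K6 had 2.995, 5.23, 4.70 and 5.03 RPKM in ATFB, ATAB, ATAH and ATAS, and ANXA5 had 278, 447, 440.2 and 418 RPKM. Among those most like the STAT5B sum were ST3GAL2, QSER1, CYB561D2 and IPCEF1, at distances from 0.0621 to 0.0748. ST3GAL2 had 19.6, 38.7, 43.5 and 46.3 in the order above. These names describe a shape over 4 libraries and nothing more.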

How the data were processed

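Per the labels and methods, the authors pooled subcutaneous fat of 5 animals per group, sequenced 1 library per group and aligned cleaned reads with SOAPaligner, without mismatch and then with fewer than 3 mismatches. They deposited raw read counts of uniquely matched reads on 36373 UniGene clusters, with RPKM and the percent of each sequence covered. The deposited RPKM was recomputed from counts and lengths within a relative difference of 5.9e-08. Symbols were given to 4891 clusters from the headers of the deposited sequence file. The full name, accession, symbol, gene number or synonym in a header was used, and all but full names were looked up in the RefSeq annotation. Members, lists and tests were chosen with earlier results of these data known, and full-name matching was added after values of other genes had been seen. Pairs of libraries were compared by exact two-sided binomial tests (scipy 1.17.1) of the counts as they were, over clusters with a read. In the log2 ratios used for calls and medians a count of 0 was read as 3 reads. Ratios used Fisher's exact test, and the stage test edgeR 4.0.16. DESeq2 1.42.0 and other scalings were alternatives. Sequences were compared with blastn 2.17.0. Scripts were tested on simulated data. Named genes were the members, the other STATs, up to 6 called genes per list by mean RPKM, list genes of 20 RPKM or more that were not called, and the 5 clusters most like each gene. Some results that these rules name are not reported here.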

Additional observations from a re-analysis of the deposited data

How the results depend on the processing

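STAT5A kept its direction and was not called under any alternative run, but its FDR crossed 0.001 in some. For ATAH to ATAB it went from 0.183 to 2.11e-07 with TMM and 1.37e-07 with DESeq2 size factors, for ATAS to ATAB from 0.416 to 7.45e-07 and 4.21e-07, and for ATAB, ATAH and ATAS to ATFB it was 0.843, 0.866 and 0.841 in the edgeR exact test with a coefficient of variation of 0.4. With TMM and DESeq2 size factors, log2 ratios between adult libraries turned negative for Bt.89313 (ATAH to ATAB -0.24 and -0.24, ATAS to ATAB -0.11 and -0.11), for Bt.20143 (ATAS to ATAB -0.0023 and -0.010) and for the STAT5B sum (ATAH to ATAB -0.10 and -0.11, ATAS to ATAB -0.069 and -0.077). None of these was called in either scaling. With ACTB scaling the STAT5B sum lost its call in ATAB (0.85) and ATAH (0.99). With the biological coefficient of variation set to 0.4, the exact test of edgeR called neither Bt.20143 (log2 2.29, 2.68 and 2.58 with edgeR FDR 0.184, 0.0731 and 0.0789) nor the STAT5B sum (1.09, 1.26 and 1.31 with edgeR FDR 0.647, 0.540 and 0.469). It called 1, 2 and 4 list genes against ATFB and 0, 0 and 0 between adults. Of all clusters it called 0.54%, 0.66% and 0.81% against ATFB. Between adults it called 0.038% (ATAH to ATAB), 0.015% (ATAS to ATAB) and 0.035% (ATAS to ATAH) of them. Of the 82 calls of list genes against ATFB, 72 held with ACTB scaling, 73 with TMM, 73 with DESeq2 size factors, 82 with at least 10 reads and 7 with that coefficient. For ATAS against ATAB, 15 list genes were called with TMM and 14 with DESeq2 size factors, against 24. The share of all clusters called there was 6.79% and 6.81%, against 8.72%.

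In the edgeR stage test the log2 difference of the STAT5B sum was 1.15 to 1.22 when each adult library was left out in turn, with FDR 0.0863 without ATAH. It was 0.75 for Bt.89313 alone (FDR 0.1003) and 0.88 with the tag cluster (FDR 0.0640), a setting chosen after seeing the data. The FDR of STAT5A ran from 0.147 to 0.285 over the alternatives. With the tag cluster the pairwise log2 ratio of the STAT5B sum was 0.84, 0.96 and 0.92 against ATFB, without a call, and -0.034 for ATAS to ATAH.

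For STAT5B reads per STAT5A read, Bt.89313 alone gave log2 differences of -0.025, 0.14 and 0.25 against ATFB in ATAB, ATAH and ATAS, and of 0.17 and 0.27 for ATAH and ATAS against ATAB, none past the threshold. Bt.20143 alone gave -0.15 for ATAS to ATAH. With the tag cluster the differences that lost the threshold were 0.11 (ATAB to ATFB), 0.28 (ATAS to ATFB), 0.25 (ATAH to ATAB) and 0.17 (ATAS to ATAB), and ATAS to ATAH was -0.077. The causes of these changes were not tested. With 1 pooled library per group no spread between animals was measured, and the counts of Bt.20143 in ATFB rest on 29 reads. No paired analysis was possible because each group had 1 library.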
